A study of Mus musculus with 20 samples.

Results

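The catenins described here are the products of 3 genes out of the 31130 in the deposited table: Ctnna1 (ENSMUSG00000037815), which encodes α-catenin, Ctnnb1 (ENSMUSG00000006932), which encodes β-catenin, and Jup (ENSMUSG00000001552), which encodes plakoglobin, the closest relative of β-catenin. They were taken by their identifiers, with earlier results of these data known. Their messenger RNA was followed across all 20 libraries of mouse nephron progenitor cells (NPCs), the cells that give rise to the nephron. The NPCs were primary cells isolated from E16.5 kidneys of mice with the genotype Cas9-eGFP, a transgene that the CAG promoter drives from the Rosa26 locus, so Cas9 was present in every group, CTRL included. Cells were lipofected with single guide RNAs (sgRNAs) together with mCherry mRNA, cultured through a 48 h knockout (KO) period, and then kept for a day in 1.25 µM (low) or 5 µM (high) CHIR before mCherry+ cells were sorted. CHIR (CHIR99021) inhibits the kinase GSK3β and thereby stabilises β-catenin. Cells labelled CTRL received an sgRNA against GFP (3 libraries in each CHIR dose), α-catenin KO cells an sgRNA against Ctnna1 (2 in each dose), β-catenin KO cells an sgRNA against Ctnnb1 (3 in each dose), and QCKO cells sgRNAs against the cadherin genes Cdh2, Cdh3, Cdh4 and Cdh11 (2 in each dose). The sample titles carry 3 dates, numbered here as replicates 1, 2 and 3, so that libraries with the same number share a date across groups. Replicates 1 and 3 hold the α-catenin KO libraries and replicates 2 and 3 the QCKO libraries. Each library is a pool of sorted cells, so that fewer cells carrying a transcript and less transcript per cell cannot be told apart, and a read count does not show whether a transcript carries an edit.

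β-Catenin has a pair of roles. At the membrane it links the tail of a classical cadherin to α-catenin, which in turn binds the actin cytoskeleton. In the nucleus it joins the Lef/Tcf factors and drives transcription of Wnt target genes. Without a Wnt signal, a complex built on Axin and APC lets GSK3β phosphorylate the amino-terminal part of β-catenin, which is then ubiquitylated and degraded. Plakoglobin can take the place of β-catenin on classical cadherins and is also a component of desmosomes, the junctions that anchor intermediate filaments. In the developing kidney, canonical Wnt signalling maintains NPCs at low activity and starts their conversion to epithelium at high activity.

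The guides against Ctnnb1 are shown because the reads of this gene differed so much among the libraries that received them. The supplementary table of the study lists 4 guides for the 48 h knockout, and 2 of the 4, named for exon 3 and for exon 6, are listed with the same letters, which leaves 3 distinct sequences of 20 bases. Which of them entered each culture was not given in the sources used here. They are printed 5′ to 3′ in lower case.
sgRNA1-exon2: atgagcagcgtcaaactgcg
sgRNA3-exon3: agccaagcgctggacattag
sgRNA5-exon3 and sgRNA6-exon6: gagattatgcagtgtcgtga

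Library depth ranged from 18124772 to 28472412 reads assigned to genes, with a median of 21449823. At this depth the catenins were well counted, from 598 reads for Ctnnb1 in its lowest library to 11387 for Ctnna1 in its highest. Summed over 8 nephron progenitor markers, the normalised read counts were 13293 to 18488 in CTRL low libraries and 2401 to 3158 in CTRL high libraries. Stroma was represented by 2 of 10 listed markers (Meis1 and Tcf21, at summed normalised counts of 5851 to 7119 in CTRL low and 1166 to 2024 in CTRL high, both called lower with CHIR), endothelium by 1 of 8, Tek, and leukocytes by none of 8, because only identifiers that the authors' tables pair with a symbol could be named. Tek was at 0 to 3.25 in CTRL low and 89.7 to 177 in CTRL high libraries, and at most 383 in any library. Ureteric epithelium was represented by 5 of 10, with sums of 857 to 1028 in CTRL high, 1212 to 2012 in α-catenin KO high and 1710 to 1867 in QCKO high libraries. Their part in the results was not tested. CTRL replicate 2 stood apart from its partners. Its high CHIR library differed from the other CTRL high libraries by a chi-square per gene of 223 and 152, against 57.1 between replicates 1 and 3. In low CHIR the values were 85.1 and 71.4, against 43.7. Replicate 1 of the libraries labelled β-catenin KO also stood apart, by 83.0 and 98.3 in low CHIR, against 47.6 between replicates 2 and 3, and by 56.1 and 56.5 in high CHIR, against 38.9.

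The first question was whether the targeted transcript was lower where it had been targeted. For Ctnna1 it was, in every library. CTRL low libraries held 10082, 7749 and 9634 normalised counts of Ctnna1 in replicates 1 to 3, and CTRL high libraries 9314, 5817 and 7624. The α-catenin KO low libraries held 3599 and 3790 and the α-catenin KO high libraries 3564 and 3621. All 4 lay below the lowest of the other 16 libraries and within 1.06-fold of each other, whereas those 16 spanned 5817 to 11092. Against the CTRL library of the same date and dose, Ctnna1 in α-catenin KO cells was at 35.7% and 39.3% in low CHIR and at 38.3% and 47.5% in high CHIR. Among 16691 genes with a mean normalised count of at least 10, only 2 were as low as this in all 4 such pairs, and Ctnna1 was one of them. The other was ENSMUSG00000105261, named here after its values were seen, for which the tables give no symbol.

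In the test across all genes, Ctnna1 fell by 1.18 on the log2 scale (SE 0.14, limma, adjusted p = 0.0244) in α-catenin KO against CTRL over both doses together, or to 0.443 of the CTRL level on that scale. It was the 1 gene of 16516 that was called in that comparison, or 0.00605%. Called genes are those that passed an adjusted p of 0.05 with a log2 fold change beyond 0.5 in either direction. In each dose alone Ctnna1 was not called. The difference was -1.30 in low CHIR (SE 0.20, limma, adjusted p = 0.314) and -1.05 in high CHIR (SE 0.20, limma, adjusted p = 0.472). By p it had rank 1 of all genes in low CHIR and rank 5 in high CHIR. No gene was called by limma in either dose (0%), with 109 genes at an unadjusted p under 0.05 in low CHIR and 928 in high CHIR, and with 0 and 0 called by edgeR and 1 and 4 by DESeq2. With the replicate number as a block, Ctnna1 was called in low CHIR (-1.41, limma, adjusted p = 0.040). The two-sided exact permutation test gave p = 0.10 in each dose, the smallest that 2 libraries against 3 allow. The groups did not overlap in either dose, which was true of 6.91% of all genes in low CHIR and 6.83% in high CHIR, counted as lower in α-catenin KO. Leaving out 1 α-catenin KO library, or any of CTRL low replicates 1 and 3 and CTRL high replicate 3, ended the call over both doses at log2 differences of -1.14 to -1.19 (limma, adjusted p = 0.112 to 0.327).

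**Figure D1:**
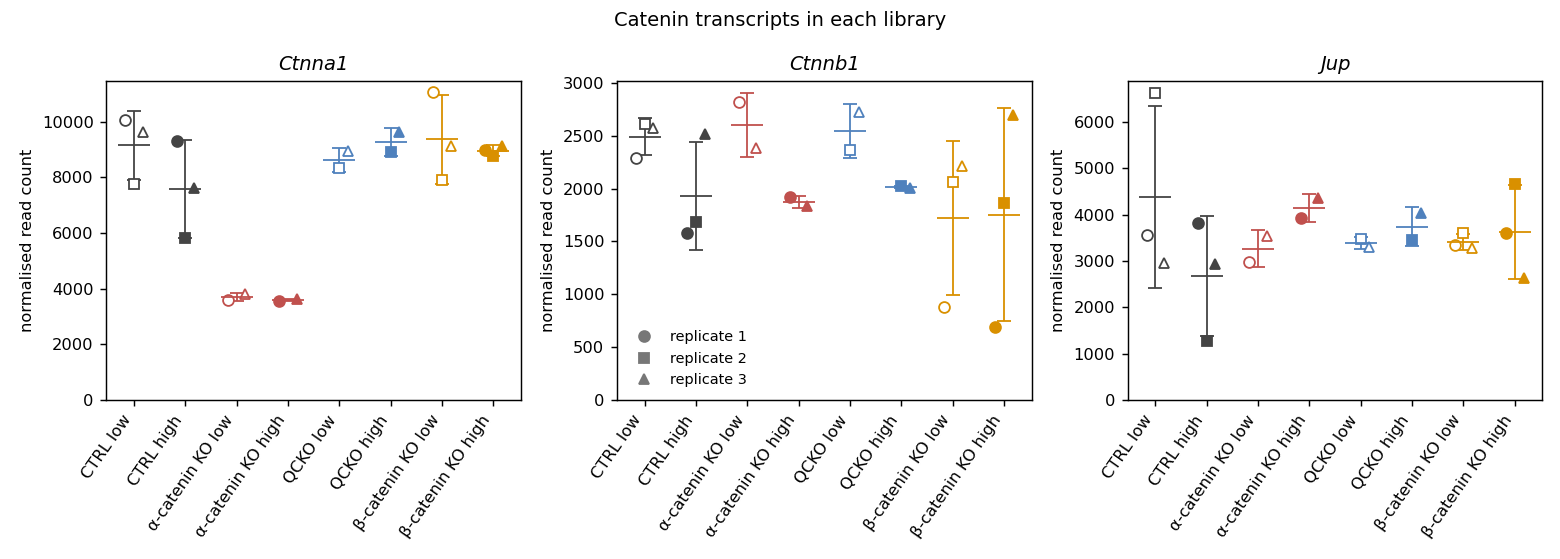
Normalised read count (vertical axis, linear, from 0) of Ctnna1, Ctnnb1 and Jup in each of the 20 libraries by group, with open symbols for low CHIR, filled symbols for high CHIR and a symbol shape per replicate. Horizontal bars and whiskers are the group mean and SD (n = 2 or 3). Ctnna1 was lowest in the 4 α-catenin KO libraries (3564 to 3790), Ctnnb1 in replicate 1 of the libraries labelled β-catenin KO (691 and 880), and Jup was both highest and lowest in replicate 2 of CTRL (6616 and 1266).

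For Ctnnb1 the libraries with the targeting guide did not behave alike. CTRL low libraries held 2290, 2606 and 2574 normalised counts of Ctnnb1, and CTRL high libraries 1582, 1684 and 2515. The libraries labelled β-catenin KO held 880, 2065 and 2209 in low CHIR, with 691, 1864 and 2698 in high CHIR. Replicate 1 was thus lower than every other library of the series in both doses, while replicate 3 in high CHIR lay above all 3 CTRL high libraries. Against CTRL of the same date and dose, replicate 1 was at 38.4% in low CHIR and 43.7% in high CHIR. Replicate 2 was at 79.2% and 111%, and replicate 3 at 85.8% and 107%. The 14 libraries without a Ctnnb1 guide spanned 1582 to 2818 over both doses, a 1.78-fold range that takes in the 4 libraries of replicates 2 and 3. Within a dose it does not take in all 4. In low CHIR those libraries spanned 2290 to 2818, above both replicate 2 (2065) and replicate 3 (2209). In high CHIR they spanned 1582 to 2515, which takes in replicate 2 (1864) but lies below replicate 3 (2698). In 199 of 16691 genes (1.19%) replicate 1 was at least as far below its same-date CTRL in both doses as it was for Ctnnb1.

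The Ctnnb1 reads of replicates 2 and 3 were at 79.2% to 111% of same-date CTRL, and reads do not show whether the gene was edited. The group is therefore called libraries labelled β-catenin KO throughout, and any direction drawn from it carries that limit. The test across genes did not call Ctnnb1. The difference from CTRL was -0.64 in low CHIR (SE 0.39, limma, adjusted p = 0.846), -0.32 in high CHIR (SE 0.39, limma, adjusted p = 0.627) and -0.48 over both (SE 0.28, limma, adjusted p = 0.301). In low CHIR all 3 libraries labelled β-catenin KO lay below the 3 CTRL libraries (exact permutation p = 0.10, two-sided, the smallest possible with 3 against 3), as did 5.00% of all genes, and in high CHIR the groups overlapped (exact permutation p = 0.90). Without the replicate 1 library of that group, the low CHIR difference was -0.22 and the high CHIR difference turned to 0.25. Without all libraries of replicate 1, the difference over both doses was -0.077. The share of genes called was 0.0659% in low CHIR, 10.5% in high CHIR and 6.84% over both, so that in high CHIR the group differed from CTRL in many genes while Ctnnb1 itself was not among them. The high CHIR count of 1757 genes ran from 22 without replicate 3 to 3060 without CTRL high replicate 1.

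**Figure D2:**
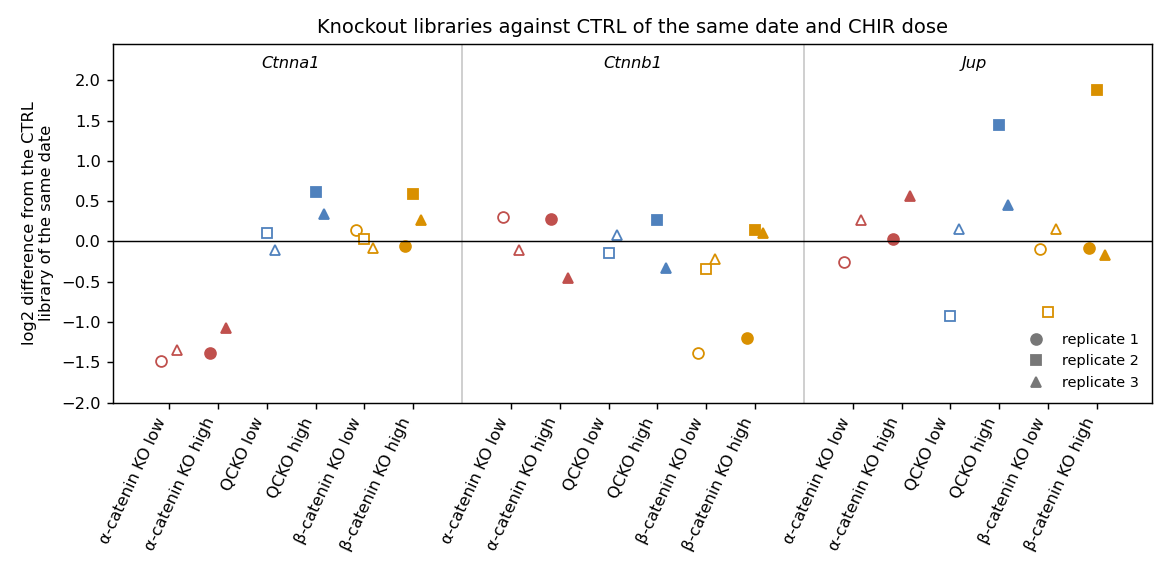
Log2 difference in normalised read count + 1 (vertical axis) between each knockout library and the CTRL library of the same date and CHIR dose, for Ctnna1, Ctnnb1 and Jup. Points are single libraries, with open symbols for low and filled symbols for high CHIR. All 4 α-catenin KO points of Ctnna1 lie between -1.49 and -1.07, and of the 6 Ctnnb1 points of libraries labelled β-catenin KO only those of replicate 1 lie below -1 (-1.38 and -1.19).

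The transcripts that β-catenin is known to drive were set beside Ctnnb1 in the same libraries, chosen with earlier results of these data in view. Axin2, which encodes a scaffold of the destruction complex and is a direct Wnt target, had 39.3, 71.5 and 61.4 normalised counts in CTRL low and 357, 435 and 391 in CTRL high libraries. In the libraries labelled β-catenin KO it had 14, 560 and 384 in low CHIR, with 18.5, 743 and 687 in high CHIR. Replicate 1 therefore lay below all CTRL libraries of its dose, and replicates 2 and 3 above all of them, in low CHIR by several-fold. Lef1, which encodes a DNA-binding partner of β-catenin, had 62.5, 72.6 and 66.7 in CTRL low libraries and 62.3, 660 and 532 in those labelled β-catenin KO. In high CHIR it had 1118, 948 and 1465 in CTRL and 93.6, 677 and 1020 in the libraries labelled β-catenin KO. Wnt4, which encodes the Wnt ligand of the forming renal vesicle, had 41.1, 72.6 and 72.0 in CTRL low libraries and 30.1, 831 and 634 in those labelled β-catenin KO. In high CHIR its counts were 5286, 4156 and 5401 in CTRL and 252, 2387 and 1200 in the libraries labelled β-catenin KO, which lay below CTRL in all 3 replicates. How many of all genes did so was not counted.

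Over the 10 listed Wnt targets that rose with CHIR in CTRL, the median log2 difference from the same-date CTRL library in low CHIR was -0.17 in replicate 1 of the libraries labelled β-catenin KO, 1.9 in replicate 2 and 2.0 in replicate 3. The same median ranged from -0.19 to 0.27 in the 4 low CHIR libraries of α-catenin KO and QCKO. In high CHIR it was -3.74 in replicate 1, where all 10 lay below the lowest CTRL library, -0.14 in replicate 2 and -0.70 in replicate 3. The 10 were chosen because they were called higher in these same CTRL high libraries, which favours values below CTRL there. How many of all genes lay below the lowest CTRL library was not counted. Replicate 1, with the fewest Ctnnb1 reads, thus also had fewer reads of Axin2 and Wnt4 than any CTRL library of its dose. For Lef1 this held in high CHIR, while in low CHIR it was level with the lowest CTRL library (62.3 against 62.5). Replicates 2 and 3, with Ctnnb1 reads near CTRL, had more of Axin2, Lef1 and Wnt4 in low CHIR than any CTRL low library. Six2, which encodes a transcription factor of the self-renewing progenitor, had 1540, 1642 and 943 normalised counts in CTRL low libraries and 1236, 970 and 773 in those labelled β-catenin KO, each below the CTRL library of its own date. In high CHIR it had 69.2, 64.1 and 83.8 normalised counts in CTRL and 798, 409 and 467 in the libraries labelled β-catenin KO, so all 3 replicates lay above CTRL, replicate 1 the farthest. How many of all genes lay above CTRL in all 3 of these high CHIR libraries was not counted. Summed over the 8 progenitor markers, the counts there were 5601 to 10596, above the 3158 of the highest CTRL high library. In the test, which called 10.5% of all genes, 7 of the 8 were called higher than in CTRL high. The markers were matched through the authors' comparison tables, which hold genes selected for a difference. The 1 called lower was Pax2, named here after its values were seen (-1.83, SE 0.42, limma, adjusted p = 0.0129), which was also the 1 marker of the 8 that was called higher with CHIR in CTRL, while the other 7 were called lower. The calls were 6 higher and 0 lower with only the groups compared, and 2 and 0 without replicate 3. The 2 stroma markers had sums of 2210 to 2780, above the CTRL high libraries (1166 to 2024), but did not move together. Tcf21 was called higher (1.52, SE 0.36, limma, adjusted p = 0.0150) but not without CTRL high replicate 2. Meis1 was slightly lower and not called (-0.29, SE 0.24, limma, adjusted p = 0.436). Their part was not tested. Jag1, which encodes a Notch ligand of induced cells, had 7444, 2725 and 13323 in CTRL high libraries and 906, 2293 and 4279 in those labelled β-catenin KO, each below the CTRL library of its own date. In low CHIR Jag1 had 145, 505 and 694 in CTRL and 185, 664 and 1425 in those labelled β-catenin KO, each above CTRL of its date. Cdh3 was likewise above its same-date CTRL in low CHIR, by 0.57, 0.66 and 1.39 on the log2 scale. For Jag1 and Cdh3 there, replicate 1 thus lay on the same side of CTRL as replicates 2 and 3. These are single libraries set side by side, and the split between replicate 1 and replicates 2 and 3, which was seen in the values, carries no test.

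**Figure D3:**
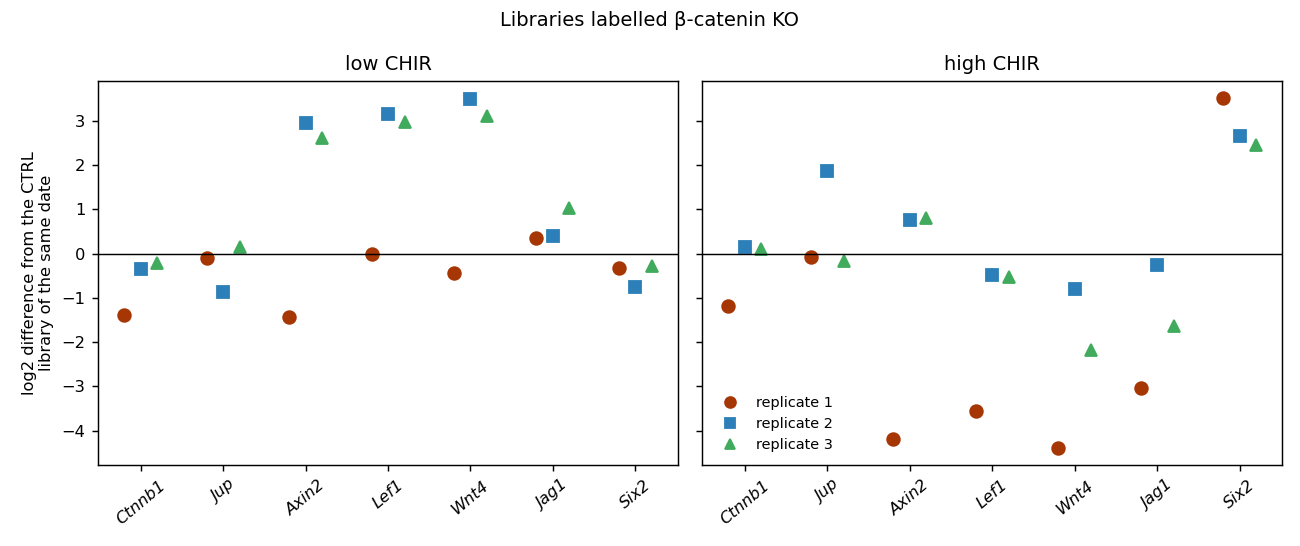
Log2 difference in normalised read count + 1 (vertical axis) between each library labelled β-catenin KO and the CTRL library of its date, in low CHIR (left) and high CHIR (right), for Ctnnb1, Jup, the Wnt targets Axin2, Lef1, Wnt4 and Jag1, and the progenitor gene Six2. Each point is 1 library. In low CHIR replicates 2 and 3 lie far above 0 for Axin2, Lef1 and Wnt4 while replicate 1 does not, and in high CHIR Six2 lies above 0 in all 3.

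Jup was examined next, since plakoglobin is the protein that could stand in for β-catenin on cadherins. CTRL low libraries held 3560, 6616 and 2947 normalised counts of Jup and CTRL high libraries 3827, 1266 and 2935. The libraries labelled β-catenin KO held 3345, 3605 and 3273 in low CHIR, with 3610, 4655 and 2622 in high CHIR. Both the highest and the lowest value of the whole series came from CTRL replicate 2. The other 18 libraries, of all groups and doses, spanned 2622 to 4655, a 1.78-fold range. Replicate 1 of the libraries labelled β-catenin KO, in which Ctnnb1 reads were lowest, had Jup at 94.0% of its same-date CTRL in low CHIR and at 94.3% in high CHIR.

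Jup was not called in the libraries labelled β-catenin KO. The difference from CTRL was -0.27 in low CHIR (SE 0.34, limma, adjusted p = 0.978), 0.54 in high CHIR (SE 0.34, limma, adjusted p = 0.306) and 0.14 over both (SE 0.24, limma, adjusted p = 0.759). The groups overlapped in both doses (exact permutation p = 0.80 and 0.50, two-sided). Without the CTRL low library of replicate 2 the low CHIR difference was 0.07. Without the CTRL high library of replicate 2 the high CHIR difference was 0.08 and that over both doses -0.10. In high CHIR the direction turned, to -0.12, only without all libraries of replicate 2, among them the highest of the libraries labelled β-catenin KO (4655).

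The ratio of Jup to Ctnnb1 counts within a library is read here only between libraries, since transcript length was not available. It was 1.55, 2.54 and 1.14 in CTRL low and 2.42, 0.751 and 1.17 in CTRL high libraries. In the libraries labelled β-catenin KO low CHIR gave 3.80, 1.75 and 1.48, and high CHIR gave 5.23, 2.5 and 0.972. The 2 highest ratios of the series were those of replicate 1, at 245% and 216% of the same-date CTRL, and they follow from its low Ctnnb1 counts at near-CTRL Jup counts. As a percentage of the same-date CTRL, replicate 2 in high CHIR was at 332% in the libraries labelled β-catenin KO and at 227% in QCKO, against a CTRL library with the lowest Jup count of the series. As a group, the ratio was 2.34 ± 1.27 (SD, n = 3) against 1.75 ± 0.716 in CTRL low (n = 3), with an exact permutation p of 0.60. In high CHIR it was 2.90 ± 2.16 (SD, n = 3) against 1.45 ± 0.868 (n = 3), with an exact permutation p of 0.40. In α-catenin KO and QCKO libraries the ratio ranged from 1.06 to 2.37.

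Each catenin was then followed where another gene had been targeted. Apart from Jup in the libraries labelled β-catenin KO, given above, none of the 12 comparisons of a catenin with CTRL in a knockout aimed at another gene was called by limma, with log2 differences from -0.34 to 0.77, and none reached an unadjusted p under 0.05. edgeR and DESeq2 also called 0 of them. The comparisons of one dose share their CTRL libraries. Ctnnb1 in α-catenin KO was 2818 and 2387 in low CHIR, with 1915 and 1836 in high CHIR. The differences from CTRL were 0.06 and -0.01 (SE 0.20 each). Ctnna1 in QCKO, where 4 of the cadherins that catenins bind were targeted, was 8327 and 8939 in low CHIR, with 8915 and 9631 in high CHIR, all within the range of CTRL or, for the last, above the CTRL high libraries. QCKO low held 2360 and 2721 counts of Ctnnb1, and QCKO high 2022 and 2007. Ctnna1 in the libraries labelled β-catenin KO was 11092, 7918 and 9118 in low CHIR, with 8983, 8756 and 9144 in high CHIR, of which 11092 was the highest value of all 20 libraries. Jup was 2977 and 3547 in α-catenin KO low libraries, 3926 and 4350 in α-catenin KO high, 3471 and 3292 in QCKO low and 3443 and 4031 in QCKO high. The widest of these differences was Jup in α-catenin KO in high CHIR, at 0.77 (SE 0.40, limma, adjusted p = 0.704), where both libraries lay above all 3 CTRL high libraries (exact permutation p = 0.20), as did 9.16% of all genes. The summed ureteric markers given above also lay above CTRL high there, and their part was not tested. For QCKO against CTRL, limma called 0.00605% of genes in low CHIR and 0% in high CHIR. An unadjusted p under 0.05 was reached by 266 genes in low CHIR and 1444 in high CHIR. In high CHIR edgeR called 0 and DESeq2 called 7. Across 30 exact permutation tests of the catenins, the lowest p after Benjamini-Hochberg adjustment was 0.931, but none of them could have passed, since the smallest unadjusted p that these group sizes allow is 0.10 (0.333 with 2 against 2).

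High CHIR, which stabilises the β-catenin protein, came with somewhat fewer Ctnnb1 reads in most pairs of libraries. In 9 of 10 pairs from one group and date, the high CHIR library held less Ctnnb1 than the low CHIR library, with a median log2 difference of -0.36 and a range of -0.63 to 0.29. Among all genes 13.5% were lower in high CHIR in at least 9 of the 10 pairs and 14.5% higher. In the 7 low CHIR libraries without a Ctnnb1 guide Ctnnb1 ran from 2290 to 2818, and in the 7 high CHIR libraries from 1582 to 2515, where replicate 3 of CTRL high was the only library that overlapped. At most 1 high CHIR library reached into the low CHIR range from below in 9.59% of all genes. The test did not call this difference in CTRL (-0.40, SE 0.18, limma, adjusted p = 0.169), in α-catenin KO (-0.47, SE 0.22, limma, adjusted p = 0.341) or in QCKO (-0.33, SE 0.22, limma, adjusted p = 0.590). Without the CTRL high library of replicate 3 it was called in CTRL (-0.61, limma, adjusted p = 0.0339), and without both CTRL libraries of replicate 3 it was not (-0.58, limma, adjusted p = 0.608). For scale, high against low CHIR called 10.7% of genes in CTRL, 4.39% in α-catenin KO, 4.93% in QCKO and 0.018% in the libraries labelled β-catenin KO. CTRL and each knockout have their own libraries in these comparisons.

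Ctnna1 and Jup showed no shared course with CHIR. Ctnna1 was lower in high CHIR in 6 of 10 same-date pairs, with log2 differences from -0.41 to 0.15, and was not called in CTRL (-0.29, SE 0.17, limma, adjusted p = 0.311). Within α-catenin KO the Ctnna1 reads that remained hardly moved with dose (-0.04, SE 0.21, limma, adjusted p = 0.977). Jup was lower in 4 of 10 pairs. In CTRL the difference was -0.76 (SE 0.36, limma, adjusted p = 0.197), and it rested on replicate 2, in which Jup was 6616 in low and 1266 in high CHIR. In replicates 1 and 3 of CTRL the paired values were 3560 and 3827, and 2947 and 2935, and without replicate 2 the difference was 0.05. None of the 9 comparisons of high with low CHIR within a knockout and none of the 9 differences between a knockout's response and that of CTRL was called for a catenin by limma, edgeR or DESeq2, and none had an unadjusted p under 0.05. Such differences in response were called in 0% of all genes for α-catenin KO and for QCKO (258 and 213 genes at an unadjusted p under 0.05, 0 by edgeR and DESeq2) and in 0.671% for the libraries labelled β-catenin KO.

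**Figure D4:**
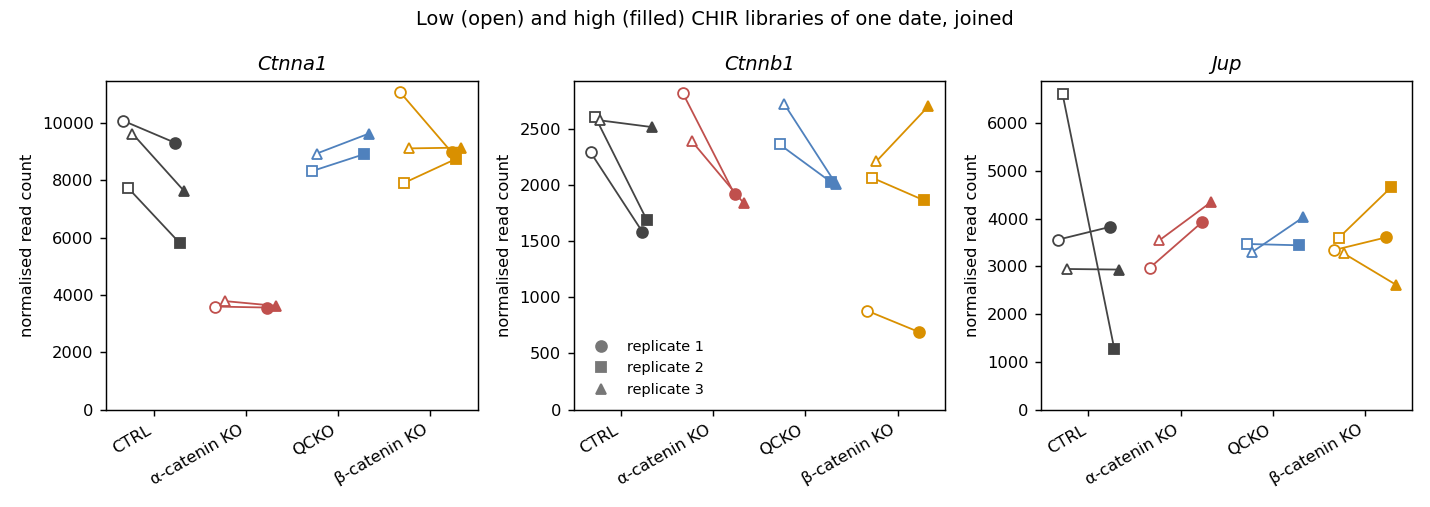
Normalised read count (vertical axis, linear, from 0) of Ctnna1, Ctnnb1 and Jup in the low CHIR (open) and high CHIR (filled) library of each date, joined by a line, by group. Ctnnb1 was lower in high CHIR in 9 of 10 pairs, and the steepest line for Jup is that of CTRL replicate 2, from 6616 to 1266.

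Ordered by group mean, Ctnna1 ran from 9376 ± 1602 (SD, n = 3) in the libraries labelled β-catenin KO in low CHIR to 3593 ± 40.5 (SD, n = 2) in α-catenin KO in high CHIR. The only neighbours in that order whose libraries did not overlap were CTRL high, at 7585 ± 1749 (SD, n = 3), and α-catenin KO low, at 3694 ± 135 (SD, n = 2), a gap that 19.8% of all genes showed between these groups. For Ctnnb1 the 3 low CHIR groups without a Ctnnb1 guide came first, with α-catenin KO at 2602 ± 304 (SD, n = 2), QCKO at 2541 ± 255 (SD, n = 2) and CTRL at 2490 ± 174 (SD, n = 3). The only gap lay between CTRL low and QCKO high, at 2015 ± 11 (SD, n = 2), which 18.4% of all genes showed. Jup had no gap anywhere in its order, from 4374 ± 1965 (SD, n = 3) in CTRL low to 2676 ± 1300 (SD, n = 3) in CTRL high.

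The genes most alike to each catenin were sought among 2870 genes with a mean of at least 100 and a symbol, by Pearson's r of log2 values over the 20 libraries, given as a description. Ctnna1 had no close match. Its highest values were 0.51 for Plec, 0.51 for Tnks1bp1 and 0.51 for Apbb2, and after the mean of each date was subtracted they were 0.55 for Apbb2, 0.51 for Plec and 0.50 for Stim1. Ctnnb1 was most alike to Igdcc3 (0.81), Mob3b (0.73) and Uhrf2 (0.68), and the same 3 genes led with date means subtracted (0.78, 0.66 and 0.74). Igdcc3 had 53.7 and 16.2 normalised counts in replicate 1 of the libraries labelled β-catenin KO against 173 to 237 in low and 139 to 141 in high CHIR in replicates 2 and 3, and it ran from 47.0 to 499 over the 18 libraries other than replicate 1 of that group, so that 53.7 lay within their range. Leaving out replicate 1 of that group, r with Ctnnb1 was 0.71 for Igdcc3 over 18 libraries. Jup was most alike to Ccdc97 (0.90), Sirt6 (0.90) and Chchd2-ps (0.89), a pseudogene whose reads may be shared with its parent gene, and with date means subtracted to Ccdc97 (0.93), 2310022A10Rik (0.91) and Mfsd10 (0.91). Ccdc97 was 1026 in CTRL low replicate 2 and 170 in CTRL high replicate 2 and between 481 and 968 elsewhere, so that both its extremes came from the libraries that gave those of Jup. Over the 18 libraries without CTRL replicate 2, r with Jup was 0.63 for Ccdc97 and 0.65 for Sirt6. Among the catenins themselves r was -0.21 for Ctnna1 with Ctnnb1, 0.04 for Ctnna1 with Jup and 0.02 for Ctnnb1 with Jup. The points share libraries of the same dates and groups.

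The genes that work beside the catenins were counted from lists, of which only the members with a symbol in the authors' tables could be matched. Since those tables hold genes selected for a difference, the counts lean towards genes that changed and are read against 10.7% of all genes called for CHIR in CTRL and 10.5% for the libraries labelled β-catenin KO in high CHIR. Without replicate 3, the CHIR calls in CTRL went from 3 to 0 for the catenin list, from 6 to 1 for cadherins, from 1 to 0 for junction partners and for desmosomes, from 4 to 1 for nuclear partners and from 11 to 6 for Wnt targets. The calls of these lists against CTRL in high CHIR in the libraries labelled β-catenin KO were all lost there and with only the groups compared. With all 20 libraries in the fit, the CHIR calls of Axin2 (limma, adjusted p = 0.146), Ctnnd2, Tcf7, Dsc2 and Notum in CTRL were lost at the same fold changes. The calls of Ctnnal1, Pkp4, Enah and Cdh2 were each lost on leaving out any single one of 4 or 5 of the 6 CTRL libraries. Of 13 listed catenins and relatives, 6 were measured, and 3 of the 6 were called in CTRL between the doses. Ctnnd2, which encodes δ-catenin, rose from 32.3 ± 12.6 to 187 ± 68.8 normalised counts (SD, n = 3 each) or by 2.5 on the log2 scale (SE 0.40, limma, adjusted p = 0.00155). Ctnnal1, which encodes an α-catenin-like protein, rose by 0.91 (SE 0.27, limma, adjusted p = 0.0464). Pkp4, which encodes a plakophilin of the δ-catenin family, fell by 0.71 on the log2 scale (SE 0.20, limma, adjusted p = 0.0404). The median of these 6 was -0.34, against -0.01 over all genes tested. In the libraries labelled β-catenin KO, Ctnnd2 had 21.5, 196 and 177 counts in low CHIR, against 27.7, 22.7 and 46.6 in CTRL. Replicates 2 and 3 lay above CTRL and replicate 1 did not, as for Axin2, Lef1 and Wnt4 but not for Jag1 and Cdh3. Without the filter on low values, 1 of the 6 was called.

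Of 11 listed cadherins 7 were measured. In CTRL 3 of them rose in high CHIR, namely Cdh3 by 2.70 (SE 0.39, limma, adjusted p = 0.000811), Cdh13 by 2.51 and Cdh4 by 1.84. Another 3 fell, with Cdh15 at -2.42, Cdh2 at -1.23 and Cdh11 at -1.12. The median was -1.12. Classical cadherins such as Cdh2, Cdh3, Cdh4 and Cdh11 are those whose tails bind β-catenin and plakoglobin. Against CTRL in high CHIR, Cdh4 fell by 1.46 on the log2 scale in the libraries labelled β-catenin KO (SE 0.30, limma, adjusted p = 0.00728), from 8081 ± 659 to 3087 ± 1213 (SD, n = 3 each). Cdh3 was 464, 2093 and 2034 there, against 2557 to 3720 in CTRL high, and was not called. Of 18 listed junction partners 4 were measured. Enah, an actin regulator, rose by 0.57 with CHIR in CTRL (SE 0.16, limma, adjusted p = 0.0379), a call that was lost without the filter on low values. Actn4, which encodes an actin crosslinker, rose by 1.48 in the libraries labelled β-catenin KO against CTRL in high CHIR (SE 0.38, limma, adjusted p = 0.0226), with 5215, 5552 and 4345 counts against 3278, 728 and 2441. Without CTRL high replicate 2 the difference was 0.82 (limma, adjusted p = 0.0396), and the call was lost without replicate 1 or replicate 2 of the libraries labelled β-catenin KO. Of 9 listed desmosome genes 2 were measured, and Dsc2, a desmosomal cadherin, rose by 2.12 with CHIR in CTRL (SE 0.41, limma, adjusted p = 0.00574), at low counts of 9.72 ± 4.75 and 44.4 ± 14.8 (SD, n = 3 each).

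In the nuclear arm, 4 of 14 listed partners of β-catenin were measured and all 4 were called in CTRL. Lef1 rose by 4.09 (SE 0.21, limma, adjusted p = 2.91e-07) and Tcf7 by 1.5 with CHIR, whereas Tcf7l1, which encodes a Tcf that mainly represses targets, fell by 1.66 and Bcl9l, a co-activator that binds β-catenin, fell by 1.56 on the log2 scale. In the libraries labelled β-catenin KO in high CHIR, Tcf7l1 rose against CTRL by 1.39 (SE 0.23, limma, adjusted p = 0.00142) and Bcl9l by 1.45 (SE 0.27, limma, adjusted p = 0.00361). Tcf7l1 was 2302, 1297 and 1486 there and 714, 624 and 554 in CTRL high, so all 3 replicates lay above CTRL. How many of all genes did so was not counted, and 10.5% of them were called in this comparison. The response of Tcf7l1 to CHIR also differed from that of CTRL, by 1.48 (SE 0.32, limma, adjusted p = 0.0424), a call lost under 15 of 24 alternatives, edgeR among them. Of 17 listed genes of β-catenin destruction 3 were measured, and Axin2 rose with CHIR in CTRL by 2.80 (SE 0.24, limma, adjusted p = 1.50e-05). Of 20 listed Wnt targets 12 were measured, of which 10 rose and 1, Myc, fell by 2.39 on the log2 scale in CTRL, with a median of 3.44. Against CTRL in high CHIR, the libraries labelled β-catenin KO had 2 of the 12 called, Myc, which rose by 1.73, and Cdh4 as above. With the replicate number as a block, 5 of the 12 were called there, with 3 of the cadherins against 1, 2 of the junction partners against 1 and 1 of the catenin list against 0. The call of Myc was also lost without CTRL high replicate 2 or without replicate 1 of the libraries labelled β-catenin KO. Their median was -1.37, against 0.02 over all genes, and the spread between replicate 1 and replicates 2 and 3 enters each standard error. In α-catenin KO and QCKO against CTRL limma and edgeR called none of the 32 listed genes tested other than Ctnna1 over both doses, with 1 to 7 at an unadjusted p under 0.05 in each comparison by limma. Among all 16516 genes, 109 to 1514 were at an unadjusted p under 0.05 in these comparisons. There limma and edgeR each called at most 1 gene and DESeq2 called 1 to 11. DESeq2 called Ctnna1 in α-catenin KO in each dose and over both, and Cdh11, one of the genes targeted in QCKO, in QCKO in high CHIR and over both.

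**Figure D5:**
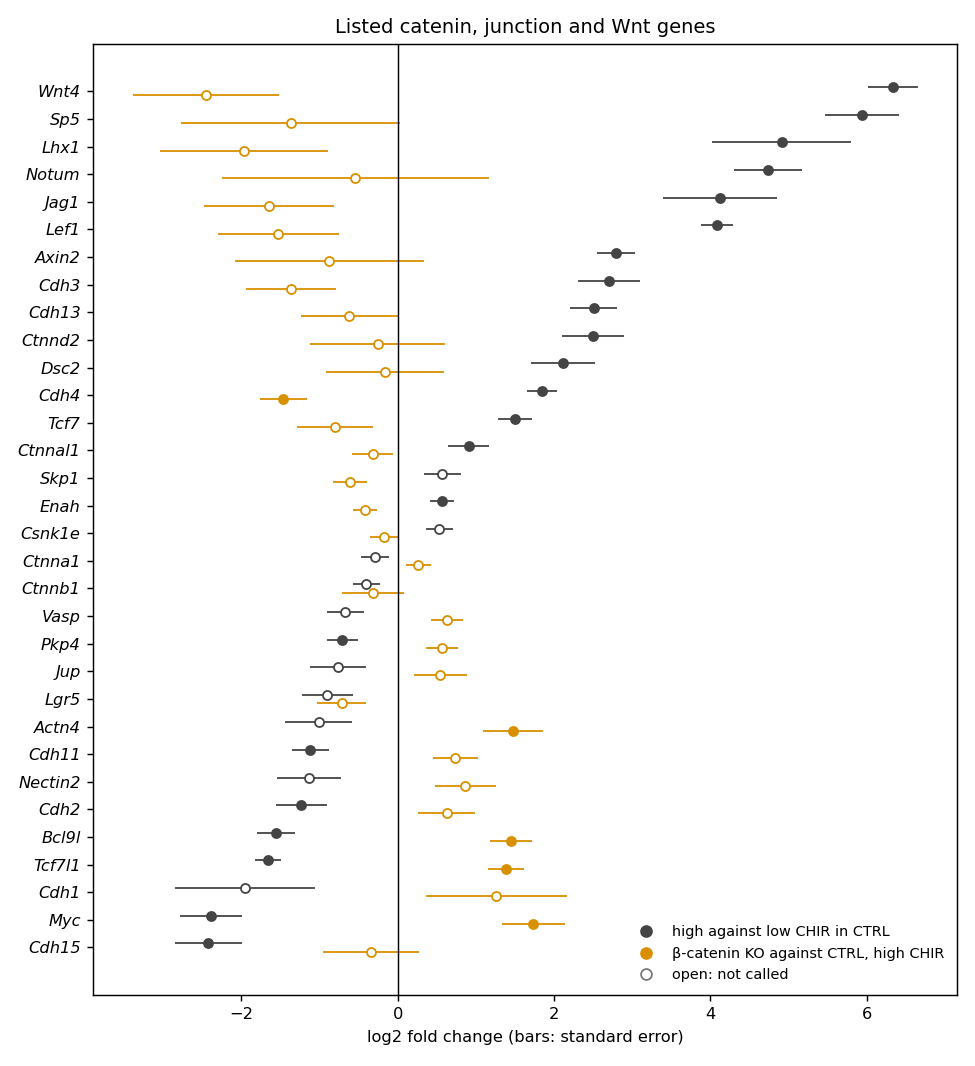
Log2 fold change (horizontal axis, with bars for the standard error) of the listed catenin, junction and Wnt genes for high against low CHIR in CTRL (grey) and for the libraries labelled β-catenin KO against CTRL in high CHIR (orange). Filled points were called and open points were not. Wnt4 (6.33) and Sp5 (5.94) lie farthest right in CTRL, while Ctnna1, Ctnnb1 and Jup are open in both comparisons.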

How the data were processed

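Libraries were made by the authors from sorted cells with the SMARTer Ultra Low kit and sequenced in paired-end mode. The deposited table holds signal values, which are counts of reads per gene scaled by the authors with a size factor for each library. They were checked to be whole multiples of the value of 1 read within 0.01 (100% of values), which gave recovered reads. In 2 libraries whose size factor is close to 1 this check says little. The submitters' processing notes name bcl2fastq, STAR, Subread, featureCounts, Salmon and DESeq2, and the builds GRCm38, mm10 and GRCh38 with no role, so no genome positions are given. The kit is not described as marking strand, so reads of a gene and of an antisense partner cannot be told apart. The deposited comparison tables hold the authors' fold changes and p-values, which were not used. Their symbols (4316 identifiers) were.

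Values were analysed as log2(normalised count + 1) with limma 3.58.1 (trend) in R 4.3.3 on genes with a mean of at least 10, with a mean per group and Benjamini-Hochberg adjustment over all genes. Comparisons without β-catenin KO used the 14 libraries of the other groups (16516 genes) and the others all 20 (16691 genes). Fold changes are on the log2(value + 1) scale and understate changes of low genes. P-values measure the spread between libraries, whose origin from separate litters is not stated. Alternatives were no filter, a minimum mean of 100, a pseudocount of 0.25 or 5, quantile normalisation, only the groups compared, all 20 libraries, the replicate number as a block, edgeR 4.0.16 and DESeq2 1.42.0 on the recovered reads, and the omission of single libraries. The omission of all libraries of a date was added after seeing the data. The replicate numbers are the dates in the titles. Deviations from the group mean of the low and high library of one date correlated at 0.0474 to 0.721. No libraries of a group were duplicates (chi-square per gene of 19.1 to 223). The scripts were tested on simulated data.

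The catenins, the gene lists and the tests were chosen with earlier results of these data known. Named were the catenins, Six2, Wnt4, Lef1, Axin2 and Jag1, up to 6 called genes per list and comparison with the largest change, and the 3 genes most alike to each catenin. Exceptions are marked where they occur.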

Additional observations from a re-analysis of the deposited data

Results flagged for a closer look

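Ctnna1 was lower in high than in low CHIR in all 3 same-date pairs of CTRL and higher in both pairs of QCKO, so that the mean responses differed by 0.39 on the log2 scale. Every pair of the one group moved opposite to every pair of the other, at sizes of -0.41 to -0.11 in CTRL and of 0.10 and 0.11 in QCKO. The difference was not called as an interaction term (limma, adjusted p = 1.00). It was picked out from the values, and 1.19% of all genes were lower in high CHIR in every CTRL pair and higher in both QCKO pairs, with 2.37% when the reverse is counted too.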

How the results depend on the processing

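For Ctnna1 in α-catenin KO the direction held under every alternative run. In low CHIR it was called with all 20 libraries (-1.30), with the replicate block (-1.41) and by DESeq2 (-1.31), and in high CHIR by DESeq2 (-1.09). Over both doses the call was lost with quantile normalisation (-1.09) and with only the groups compared (-1.18), and without single libraries or dates the value ran from -1.32 to -1.03. Without single libraries or dates, the differences of the libraries labelled β-catenin KO from CTRL ran from -0.73 to 0.25 for Ctnnb1 in high CHIR, from -0.51 to 0.072, -0.12 to 0.90 and -0.10 to 0.31 for Jup in low CHIR, in high CHIR and over both, and from -0.084 to 0.83 and 0.28 to 1.49 for the log2 ratio of Jup to Ctnnb1 in low and in high CHIR. High against low CHIR in CTRL ran from -0.45 to -0.11 for Ctnna1, from -0.61 to -0.27 for Ctnnb1 and from -1.20 to 0.049 for Jup. The replicate block changed no other call of Ctnna1, Ctnnb1 or Jup. Counts of genes called ran, over the alternatives, from 22 to 3060 (1757 as reported) for the libraries labelled β-catenin KO in high CHIR, 0 to 189 (11) in low CHIR, 0 to 2037 (1142) over both, 157 to 2986 (1760), 8 to 1186 (725), 12 to 1855 (814) and 0 to 51 (3) for CHIR in CTRL, α-catenin KO, QCKO and the libraries labelled β-catenin KO, and 0 to 400 (112) for the response of the last. Each group holds 2 or 3 libraries, which limits the precision of every difference.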
